A study of Rattus norvegicus with 6 samples.

Results

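The solute carriers are the family of membrane proteins that move nutrients, ions and metabolites into and out of cells and organelles. Members were the probe sets of the deposited value table that list exactly 1 gene whose symbol begins with Slc and a number, with 1 further such gene left out by the definition. They came to 61 genes on 84 probe sets, of 2890 named genes and 4818 tested probe sets in all. For the 18 genes with several probe sets, the probe set with the highest mean signal over the 6 arrays stood for the gene.

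RNA of cultured rat fibroblasts was hybridised to Affymetrix RG_U34A arrays. The line 208F is labelled immortal, and FE8 is labelled HRAS-transformed. Each line was measured untreated (n = 1) and after 96 h in 0.3 uM 5-aza-deoxy-cytidine (n = 2), called the drug here, a cytidine analogue that traps DNA methyltransferases and so lowers DNA methylation in dividing cells. FE8 was the only transformed line, so HRAS and other differences between the lines cannot be told apart, and the labels do not say whether duplicates were separate cultures, so p-values measure a spread that may be technical.

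Solute carriers work as uniporters, as symporters that use the sodium or proton gradient, or as exchangers. In cultured fibroblasts they supply glucose, amino acids and nucleosides, release lactate and set cell pH and volume. Most of the carriers numbered 25 shuttle metabolites across the inner mitochondrial membrane. Several families, among them those of neurotransmitter and kidney transport, are known mainly from neurons and epithelia.

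Because the drug lowers DNA methylation, the promoter windows of members are shown first with their CpG sites, as reference sequence and not as a methylation measurement. The windows are those of RefSeq on GRCr8, from 250 bases before to 50 bases after a gene's start, and 50 of the 61 members had at least 1. Printed are the 2 members with the largest drug-effect rise that had a window, Slc7a1 (chr12:11664238-11664537, plus strand) and Slc16a1 (chr2:194812410-194812709, plus strand), and for contrast Slc1a3 (chr2:59557738-59558037, minus strand), which among members called in any comparison had the fewest CpG sites, tied with 1 of the windows of Slc41a2. Capitals mark each CG.
Slc7a1: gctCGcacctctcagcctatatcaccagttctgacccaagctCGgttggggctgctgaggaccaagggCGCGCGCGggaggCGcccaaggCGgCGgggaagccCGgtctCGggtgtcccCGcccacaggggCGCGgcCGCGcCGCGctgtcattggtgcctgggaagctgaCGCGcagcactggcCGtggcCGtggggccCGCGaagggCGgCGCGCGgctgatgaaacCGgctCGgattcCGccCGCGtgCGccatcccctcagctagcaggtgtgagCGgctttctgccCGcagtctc
Slc16a1: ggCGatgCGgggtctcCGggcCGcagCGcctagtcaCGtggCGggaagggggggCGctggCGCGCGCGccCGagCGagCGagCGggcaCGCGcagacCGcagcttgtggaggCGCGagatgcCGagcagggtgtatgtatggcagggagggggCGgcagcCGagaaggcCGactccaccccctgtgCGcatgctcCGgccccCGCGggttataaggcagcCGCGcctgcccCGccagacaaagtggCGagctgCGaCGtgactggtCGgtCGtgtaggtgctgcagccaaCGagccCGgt
Slc1a3: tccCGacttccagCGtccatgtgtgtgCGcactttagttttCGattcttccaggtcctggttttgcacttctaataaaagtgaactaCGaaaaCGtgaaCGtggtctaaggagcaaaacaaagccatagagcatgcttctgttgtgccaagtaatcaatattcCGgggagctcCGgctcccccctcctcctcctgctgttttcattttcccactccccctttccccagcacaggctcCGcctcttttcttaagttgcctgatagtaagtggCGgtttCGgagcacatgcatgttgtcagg

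The Slc7a1 window held 36 CG, the Slc16a1 window 39 and the Slc1a3 window 12. Over all 57 member windows the median was 20 CG, with a range of 0 to 52, against a median of 7 over the 33469 windows of the genome table. At least 10 CG stood in 75.4% of member windows and in 41.5% of all windows. All 12 windows of members called in any comparison, from 8 genes, held at least 10, and so did 68.9% of the 45 windows of the other members. Low-CG windows occurred too, with 9 CG for the fructose transporter Slc2a5 and 0 for the organic anion transporter family member Slc22a25. On both strands, the AP-1 motif TGACTCA was found in 3 member windows (5.26%, against 4.63% of all), the E-box CACGTG in 8 (14% against 6.42%, Slc16a1 among them) and the amino acid response core TGATGNAA in 2 (3.51% against 3.98%, Slc7a1 among them). No motif contains another, and a match describes letters only. The E-box letters include a CG, and member windows hold more CG than all windows. All windows are those of the genome, and windows of the genes on the array were not counted apart. Neither the CG nor the E-box contrast is therefore shown to be a trait of solute carriers.

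Array facts that touch the results are these. Median signals over the tested probe sets lay between 354 and 422. Both untreated arrays were run in an earlier year than the 4 treated arrays and on chips of another lot, so the drug and the run cannot be told apart. Among treated arrays, 208F replicate 1 was on another chip lot and run day than its duplicate and both FE8 arrays. The 208F duplicates thus differ in run and the FE8 duplicates do not, so line and run are partly mixed under the drug. The ratio of 5' to 3' signal for beta-actin, a sign of RNA quality, was 0.824 in untreated 208F and between 0.351 and 0.529 on the other 5 arrays, lowest in untreated FE8. The same ratio for Gapdh was 0.691 in untreated FE8 and between 0.916 and 1.13 on the other 5. Signals under 64 made up 13.3% and 13.5% of the untreated arrays and 6.99% to 9.71% of the treated ones. Of 15 fibroblast markers 11 were measured, and their summed signal was 125055 in 208F without the drug and 105365 and 80667 with it, then 66606 in FE8 without the drug and 54264 and 60091 with it. Vim lay between 7118 and 18849 over the 6 arrays and S100a4 between 14411 and 23151. The collagen Col1a1, a defining fibroblast marker, was at 22282 in untreated 208F but at 131 in FE8 without the drug and 271 and 100 with it. By the test described below, 5 of the 11 were called lower in FE8 without the drug and 5 with it, and none higher. In both they were Col1a1, Col1a2, Col3a1, Col5a2 and Fn1. Of all probe sets 2.82% and 3.65% were called lower.

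Differences below are on the scale of log2(signal + 64), with the standard error of a limma fit of 4 group means over all 6 arrays, and adjusted p is Benjamini-Hochberg over 4818 probe sets with a threshold of 0.05. Each untreated group is a single array, whose spread is taken from the treated duplicates. Treated duplicates of members lay apart by a median of 0.29 in 208F and 0.32 in FE8 on this scale, close to 0.30 and 0.27 over all probe sets. The widest gaps were 1.35 for Slc30a4 in 208F and 1.00 for Slc14a2 in FE8. Signals of different probe sets do not rank genes by mRNA amount, and in bulk samples fewer cells of a type and less RNA per cell cannot be told apart.

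The first question was which transporters differ between FE8 and 208F. Without the drug, 6 of 61 members were higher in FE8 and none was lower, where 5.92% of all probe sets were called (3.09% higher and 2.82% lower). The 6 were the neutral amino acid transporter Slc6a15, the sodium bicarbonate cotransporter Slc4a7, the nucleoside transporter Slc29a1, the glutamate transporter Slc1a3, the monocarboxylate transporter Slc16a1 and Slc3a2, the heavy chain that brings several amino acid exchangers to the cell surface. At an unadjusted p under 0.05 limma gave 11 members higher and 3 lower (15.7% of all probe sets in either direction). Under the drug, in arrays that share none with the first comparison, 6 of 61 were higher and none lower, against 7.08% of all probe sets called (3.42% higher and 3.65% lower), with 7 higher and 3 lower at an unadjusted p under 0.05 (17.1% of all). Slc6a15, Slc4a7, Slc29a1 and Slc1a3 passed in both. The probe sets of Slc1a3 disagree in direction, and by the mean over each gene's probe sets the counts were 5 and 5, with Slc1a3 no longer among them.

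Slc6a15, a carrier of branched-chain amino acids and proline, was near the lower limit of signal in 208F. Its signals were 10 in 208F without the drug and 18 and 42 with it, then 1050 in FE8 without the drug and 290 and 190 with it. All 3 FE8 signals lay above all 3 of 208F, which were below 64. The difference was 3.91 ± 0.47 without the drug (adjusted p = 0.00051) and 1.69 ± 0.33 with it (adjusted p = 0.0092). Because the 208F signals are so low, the pseudocount sets the size, which was 5.36 and 2.50 with a pseudocount of 16, and 2.30 and 0.79 with the largest pseudocount tried. The gene has 1 probe set, S56141_s_at, of a suffix that marks probe sets which may be shared between transcripts.

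Slc4a7, which imports bicarbonate with sodium and so counters acid in the cell, had signals of 507 in 208F without the drug and 576 and 1188 with it, then 3086 in FE8 without the drug and 2349 and 2957 with it. The groups of the 2 lines did not overlap. The difference was 2.46 ± 0.43 without the drug (adjusted p = 0.0061) and 1.59 ± 0.31 with it (adjusted p = 0.0078). Slc29a1, the equilibrative transporter that carries nucleosides and many nucleoside analogue drugs, had signals of 269 in 208F without the drug and 410 and 389 with it, then 1504 in FE8 without the drug and 1287 and 1156 with it. Here too every FE8 signal exceeded every 208F signal. The difference was 2.24 ± 0.34 (adjusted p = 0.0024) and 1.47 ± 0.24 (adjusted p = 0.0027). Its relative Slc29a2 was at -0.38 ± 0.44 and -0.09 ± 0.31, with neither passing.

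Slc1a3, a glutamate and aspartate transporter best known from astrocytes, was called by its brightest probe set, X63744_at, at 2.04 ± 0.51 (adjusted p = 0.038) and 1.58 ± 0.36 (adjusted p = 0.021). The signals were 93 in 208F without the drug and 66 and 121 with it, then 581 in FE8 without the drug and 287 and 551 with it. Under quantile normalization the untreated call was lost. The other 3 probe sets of the gene had differences below 0, as given below, so no direction can be given for the gene.

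Slc3a2 and Slc16a1 passed without the drug but not with it. Slc3a2 signals were 1437 in 208F without the drug and 3134 and 2458 with it, then 4639 in FE8 without the drug and 2808 and 4511 with it, with untreated 208F the lowest of all. The difference was 1.65 ± 0.37 (adjusted p = 0.024) and 0.35 ± 0.26 (adjusted p = 0.64), and the untreated call was lost without the intensity trend. Its other probe set, X89225cds_s_at, gave 0.65 ± 0.30 (adjusted p = 0.33) and 0.50 ± 0.21 (adjusted p = 0.26), so the call rests on 1 of 2 probe sets. Its partner Slc7a5, the light chain that exchanges large neutral amino acids, stood at -0.10 ± 0.35 and 0.18 ± 0.24. Slc16a1, which carries lactate and pyruvate with a proton, had signals of 946 in 208F without the drug and 2723 and 3821 with it, then 3510 in FE8 without the drug and 4256 and 5067 with it. It differed by 1.82 ± 0.34 (adjusted p = 0.0084) and 0.52 ± 0.24 (adjusted p = 0.3), and again the untreated 208F array stood lowest. The other Slc16a1 probe set, D63834_at, gave 1.91 ± 0.56 (adjusted p = 0.083) and 0.51 ± 0.40 (adjusted p = 0.66), and passed in neither.

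Slc2a1, the main glucose transporter of dividing cells, and the magnesium transporter Slc41a2 passed with the drug but not without it. Slc2a1 signals were 2024 in 208F without the drug and 1231 and 2101 with it, then 4129 in FE8 without the drug and 3079 and 3834 with it, with no overlap between the lines. The difference was 1.01 ± 0.38 (adjusted p = 0.2) and 1.06 ± 0.27 (adjusted p = 0.037), a call lost without the intensity trend. Its other probe set, M13979_at, gave 1.29 ± 0.37 (adjusted p = 0.075) and 0.93 ± 0.26 (adjusted p = 0.061), and passed in neither. Slc41a2 signals were 358 in 208F without the drug and 508 and 543 with it, then 838 in FE8 without the drug and 1245 and 1058 with it. It differed by 1.10 ± 0.34 (adjusted p = 0.1) and 1.04 ± 0.24 (adjusted p = 0.025).

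**Figure D1:**
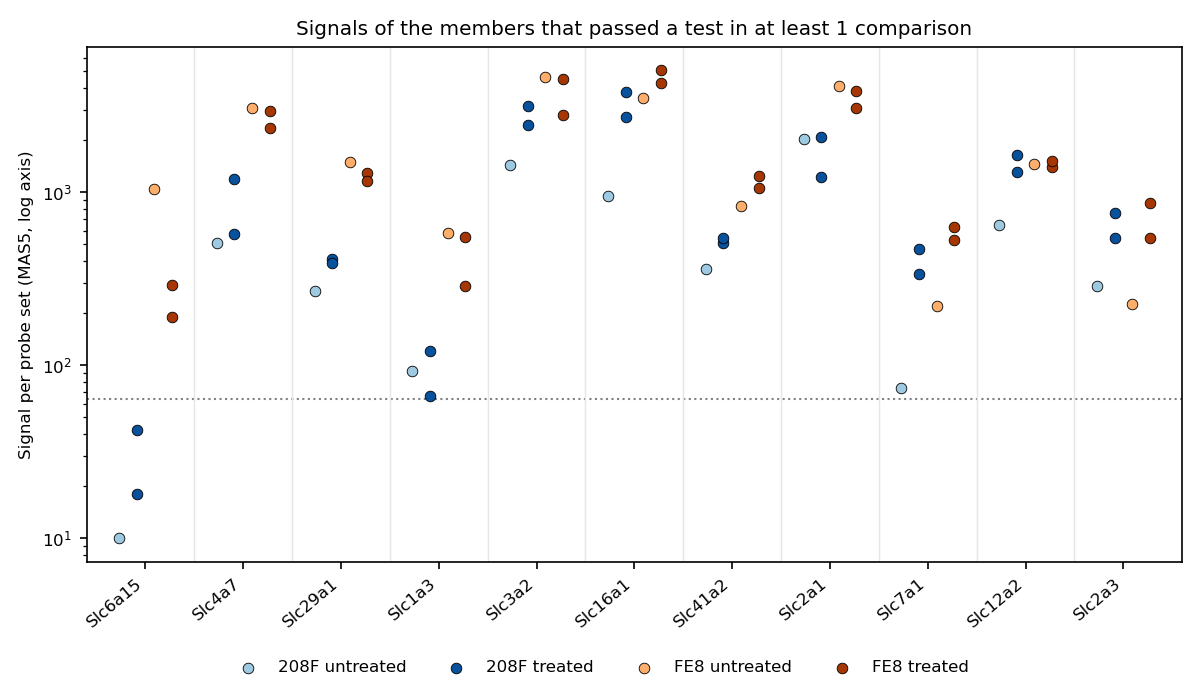
Signal of each array (log axis) for the 11 members that passed the test in at least 1 of 5 comparisons, with 1 point per array and the dotted line at the pseudocount of 64. Slc6a15, Slc4a7, Slc29a1, Slc41a2 and Slc2a1 show FE8 above 208F on every array, and untreated 208F is the lowest point for Slc3a2, Slc16a1, Slc7a1 and Slc12a2.

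All 3 FE8 signals lay above all 3 of 208F for 7 of 61 members (11.5%), against 8.55% of all probe sets, and below them for 1 member (1.64%), against 9.53%. Under the drug alone, both FE8 signals exceeded both 208F signals for 12 members (20.7% of all probe sets) and lay below them for 11 (21.5%). The 7 were those just named apart from Slc3a2 and Slc16a1, and in addition Slc7a3, a cationic amino acid transporter. They include Slc1a3 by X63744_at, while its probe set S59158_at lay lower in FE8 on every array. Slc7a3 signals were 18 in 208F without the drug and 62 and 137 with it, then 151 in FE8 without the drug and 266 and 253 with it, at 1.39 ± 0.48 (adjusted p = 0.15) and 1.02 ± 0.34 (adjusted p = 0.12). The member lower in FE8 on every array was Slc25a10, the mitochondrial dicarboxylate carrier, at -0.84 ± 0.37 (adjusted p = 0.3) and -0.58 ± 0.26 (adjusted p = 0.29). These 2 genes were picked after their values were seen. Over all members the median difference was -0.01 without the drug and -0.01 with it, beside 0.02 and 0.00 over all probe sets, and 30 and 29 members stood above 0, against 51.6% and 49.9% of all.

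**Figure D2:**
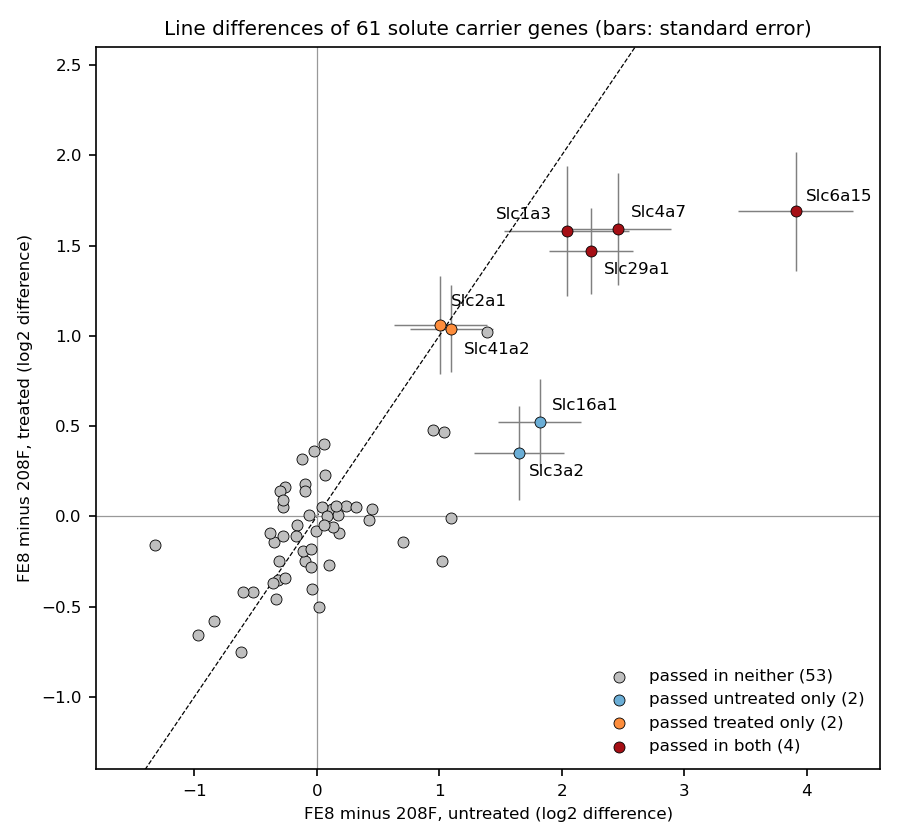
FE8 minus 208F on the log2 scale without the drug (x axis) and with it (y axis) for the 61 members, with standard errors for members that passed either test and a dashed line of equal difference. The 4 members that passed in both and the 2 that passed without the drug alone, Slc16a1 and Slc3a2, lie below or near that line, and 53 members passed in neither.

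Classes follow the family number, so that Slc6a15, of a family that also carries neurotransmitters, is counted with the neurotransmitter and osmolyte transporters although it carries amino acids. Of all probe sets, 3.09% were called higher without the drug and 3.42% with it, with median differences of 0.02 and 0. The values without the drug come from 1 array per line. By class, 2 of 8 amino acid and peptide transporters were higher without the drug (median 1.03) and 1 with it (median 0.26). Slc1a3, for which no direction can be given, is in both counts and is the only 1 with the drug. Of 12 transporters of inorganic ions, 1 and 2 were higher (medians -0.10 and -0.03). Of 7 neurotransmitter and osmolyte transporters, 1 and 1 were higher, both Slc6a15 (medians -0.05 and 0.01), and the taurine transporter Slc6a6 lay lowest in both, at -0.62 ± 0.45 and -0.75 ± 0.32. None of 13 mitochondrial, Golgi and ER carriers passed in limma. At an unadjusted p under 0.05 there were 2 and 2 (15.7% and 17.1% of all probe sets). Their range was -0.97 to 0.70 without the drug and -0.66 to 0.40 with it. Among these were the mitochondrial phosphate carrier Slc25a3 at 0.32 ± 0.33 and 0.05 ± 0.23, and the ADP/ATP carriers Slc25a4 at -0.35 ± 0.37 and -0.14 ± 0.26 and Slc25a5 at 0.06 ± 0.31 and 0.40 ± 0.22.

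The error of both line comparisons rests on few arrays. The untreated count was 2 without FE8 treated replicate 1 or 2, with Slc29a1 and Slc6a15 remaining, and 9 without either 208F treated replicate, while calls over all 4818 probe sets went from 285 to 109 or 113 and to 541 or 536. The treated count was 0 without either FE8 treated replicate, 8 without 208F treated replicate 2, and 6 without 208F treated replicate 1, which leaves only arrays of the same chip lot, beside 136 or 96, 530 and 491 calls over all probe sets, from 341.

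The next question was which transporters respond to the drug. In 208F (treated n = 2, untreated n = 1), 3 of 61 members rose, the cationic amino acid transporter Slc7a1, Slc16a1 and the sodium, potassium and chloride cotransporter Slc12a2, and none fell. By the mean over each gene's probe sets 3 were called as well, but only Slc16a1 was shared, with Slc2a5 higher and Slc25a1 lower in place of the others. Without probe sets of the shared suffix 2 were called, Slc16a1 higher and Slc4a2 lower. Of all probe sets 5.19% were called, 3.59% higher and 1.60% lower. At an unadjusted p under 0.05 limma gave 11 members higher and 4 lower (17.7% of all in either direction). These calls share the untreated 208F array with the untreated line comparison, so the 2 sets of values for Slc16a1 are not independent.

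Slc7a1, which takes up arginine and lysine, had signals of 74 in untreated 208F and 336 and 469 in treated 208F, and of 219 in FE8 without the drug and 528 and 629 with it. Both treated arrays exceeded the untreated one in each line. The drug effect was 1.74 ± 0.36 in 208F (adjusted p = 0.018) and 1.18 ± 0.36 in FE8 (adjusted p = 0.073). It rests on 1 of its 3 probe sets, as given below, and was 0.71 (adjusted p = 0.28) by the mean of all 3 and 0.05 (adjusted p = 0.98) without probe sets of the shared suffix. The call was also lost under quantile normalization (adjusted p = 0.057) and with the largest pseudocount tried (0.051).

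Slc16a1 rose by 1.70 ± 0.29 in 208F (adjusted p = 0.0065), with both treated signals above the untreated one, and stood at 0.40 ± 0.29 in FE8 (adjusted p = 0.5). Its second probe set, D63834_at, gave 2.01 ± 0.49 in 208F (adjusted p = 0.038). Slc12a2, which loads cells with chloride, had signals of 648 in 208F without the drug and 1312 and 1637 with it, then 1462 in FE8 without the drug and 1398 and 1512 with it. It rose by 1.10 ± 0.28 in 208F (adjusted p = 0.047) and stood at -0.01 ± 0.28 in FE8. Its other probe sets gave 1.04 ± 0.37 (S82233_s_at, adjusted p = 0.15) and 0.63 ± 0.38 (AF086758_g_at, adjusted p = 0.44) in 208F. In FE8 they gave 0.64 ± 0.37 (adjusted p = 0.37) and 1.17 ± 0.38 (adjusted p = 0.085), so the FE8 value near 0 is that of the probe set in use only. The Slc12a2 call was lost under quantile normalization (adjusted p = 0.094), with that pseudocount (0.06), without the intensity trend (0.12) and by the mean of its probe sets (0.09).

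In FE8 (treated n = 2, untreated n = 1), 2 of 61 members passed, with the glucose transporter Slc2a3 higher and Slc6a15 lower, where 8.16% of all probe sets were called (5.06% higher and 3.09% lower). At an unadjusted p under 0.05 there were 8 members higher and 5 lower (21.3% of all in either direction). Slc2a3, a high-affinity transporter prominent in neurons, had signals of 226 in FE8 without the drug and 867 and 544 with it, and of 287 in untreated 208F and 756 and 544 in treated 208F. The effect was 1.38 ± 0.37 in FE8 (adjusted p = 0.044) and 1.01 ± 0.37 in 208F (adjusted p = 0.16). Under quantile normalization it was 1.21 in FE8 (adjusted p = 0.13), so that the only call left there was Slc6a15. The Slc2a3 call was also lost without the intensity trend (0.07) and with the largest pseudocount tried (0.066). Slc6a15 fell in FE8, at -1.89 ± 0.41 (adjusted p = 0.017, and 0.056 with a pseudocount of 16), while its 208F signals stayed below 64. This fall shares the single untreated FE8 array with the untreated line difference and with the difference between the drug effects below. The Slc6a15 values of these comparisons are therefore not independent.

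The counts again turn on which duplicates set the error. Leaving out a treated FE8 array leaves the 208F effects as they were, with Slc16a1 at 1.70, and changes only their error. That error then comes from the 208F duplicates alone, which differ in run. Without a treated 208F array it comes from the FE8 duplicates alone, of the same chip lot and run day. Those hold no spread between runs, while each drug effect compares arrays of different runs. In 208F, leaving out 208F treated replicate 1 gave 11 calls (7 higher and 4 lower), leaving out its duplicate gave 8 (6 and 2), and leaving out either treated FE8 array gave 0. Calls over all 4818 probe sets moved likewise, from 250 to 663, 416, and 75 or 78. In FE8 the count was 4 when either treated 208F array was left out (Slc2a3 and Slc7a1 higher, Slc6a15 and Slc35b1 lower) and 0 when either treated FE8 array was, while calls over all probe sets went from 393 to 783 or 779 and to 76 or 77.

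Below the test threshold, more members stood above 0 than all probe sets did. In 208F 46 of 61 members (75.4%) had a drug effect above 0, against 58.7% of all probe sets, and in FE8 41 (67.2%) against 55.7%. The median was 0.33 over members and 0.11 over all probe sets in 208F, and 0.23 and 0.08 in FE8. The FE8 values turn on single arrays, with a member median of 0.04 and 32 of 61 above 0 (50.4% of all probe sets) without FE8 treated replicate 1, and a median of 0.44 with 40 above 0 (58.1%) without replicate 2. Both treated signals exceeded the untreated one for 41 members in 208F (44.1% of all probe sets) and 27 in FE8 (42.9%), and both lay below it for 11 (29.9%) and 17 (34.1%). For 27 members (44.3%) both treated signals exceeded the untreated one in both lines, against 28.5% of all probe sets, and for 7 members (11.5%) both lay below it in both lines, against 19.1%. Quantile normalization moved the median of all probe sets to -0.03 in 208F and -0.04 in FE8, a shift of over 0.1 in each line. The member medians were then 0.13 and 0.05, with 36 and 33 of 61 above 0 (46.9% of all probe sets in each line), and 20 members raised in both lines, against 20.3% of all probe sets. Among probe sets that reached a signal of 200, which kept 54 members, the medians were 0.32 against 0.09 in 208F and 0.16 against 0.05 in FE8.

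Among sugar transporters, Slc2a5, which carries fructose, had signals of 38 in 208F without the drug and 236 and 239 with it, then 35 in FE8 without the drug and 241 and 106 with it. Both untreated arrays were below 64 and every treated array above it. The effects were 1.56 ± 0.44 in 208F (adjusted p = 0.069) and 1.20 ± 0.44 in FE8 (adjusted p = 0.13), and neither passed. The myo-inositol transporter Slc5a3 was at -0.96 ± 0.41 in 208F and 0.20 ± 0.41 in FE8. Over the 6 sugar transporters 1 call was made, Slc2a3 in FE8, with medians of 0.09 and 0.29. For this and the next classes, 5.19% of all probe sets were called in 208F and 8.16% in FE8, with medians of 0.11 and 0.08. Slc2a5 and Slc5a3 are given as the ends of the range in 208F.

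Among the 4 carboxylate transporters 1 was called, Slc16a1 in 208F, with medians of 0.70 in 208F and 0.52 in FE8. Slc16a3, which exports lactate from glycolytic cells, had signals of 79 in 208F without the drug and 307 and 203 with it, then 69 in FE8 without the drug and 216 and 186 with it. All 4 treated arrays lay above both untreated ones. The effects were 1.14 ± 0.39 (adjusted p = 0.14) and 0.99 ± 0.39 (adjusted p = 0.17). Slc16a6 stayed under 64 on all arrays, the only member to do so.

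Of 7 neurotransmitter and osmolyte transporters, the effect was above 0 for 7 in 208F and 6 in FE8, against 58.7% and 55.7% of all probe sets. Slc6a15 was the only call. Slc6a6 was at 1.09 ± 0.39 in 208F and 0.95 ± 0.39 in FE8, and the creatine transporter Slc6a8 at 0.58 ± 0.35 and 0.06 ± 0.35. The transporters of norepinephrine, Slc6a2, and dopamine, Slc6a3, known from neurons, were at 0.33 ± 0.39 and 0.09 ± 0.40 in 208F and at 0.24 ± 0.39 and 0.53 ± 0.40 in FE8. Of 8 transporters of organic ions, vitamins and nucleosides none passed in either line. At an unadjusted p under 0.05 limma gave 1 and 1 (17.7% and 21.3% of all probe sets). Both were Slc22a25, at 1.12 ± 0.40 and 1.11 ± 0.40. The multivitamin transporter Slc5a6 stood at 0.49 ± 0.29 and 0.41 ± 0.29, and Slc29a1 at 0.48 ± 0.29 and -0.29 ± 0.29.

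Among 12 transporters of inorganic ions, 10 had an effect above 0 in 208F and 10 in FE8, against 58.7% and 55.7% of all probe sets. The medians were 0.42 and 0.38, and Slc12a2 in 208F was the only call. The potassium and chloride cotransporters Slc12a4 and Slc12a7 were at 0.48 ± 0.32 and 0.52 ± 0.32 in 208F, and at 0.60 ± 0.32 and 0.45 ± 0.32 in FE8. Among 3 transporters of transition metals none passed. At an unadjusted p under 0.05 limma gave none and 1 (17.7% and 21.3% of all probe sets). The zinc exporter Slc30a1 stood at 0.62 ± 0.41 and 1.06 ± 0.41, Slc30a4 at 0.50 ± 0.49 and 0.02 ± 0.49, and the iron transporter Slc11a2 at -0.26 ± 0.32 and -0.40 ± 0.32.

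The 13 mitochondrial, Golgi and ER carriers had medians of 0.01 in 208F and -0.18 in FE8. None passed in limma, with 4 and 3 at an unadjusted p under 0.05 (17.7% and 21.3% of all probe sets). Slc25a1, which exports citrate for fatty acid and sterol synthesis, had signals of 1932 in 208F without the drug and 795 and 941 with it, then 957 in FE8 without the drug and 440 and 621 with it. It was at -1.10 ± 0.31 in 208F (adjusted p = 0.069) and -0.80 ± 0.31 in FE8 (adjusted p = 0.16). Slc25a5 was at -0.78 ± 0.27 and -0.45 ± 0.27, Slc25a3 at -0.21 ± 0.29 and -0.48 ± 0.29, and Slc25a4 at -0.40 ± 0.32 and -0.18 ± 0.32. At the other end of the range, the oxoglutarate carrier Slc25a11 stood at 0.87 ± 0.31 and 0.71 ± 0.31.

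**Figure D3:**
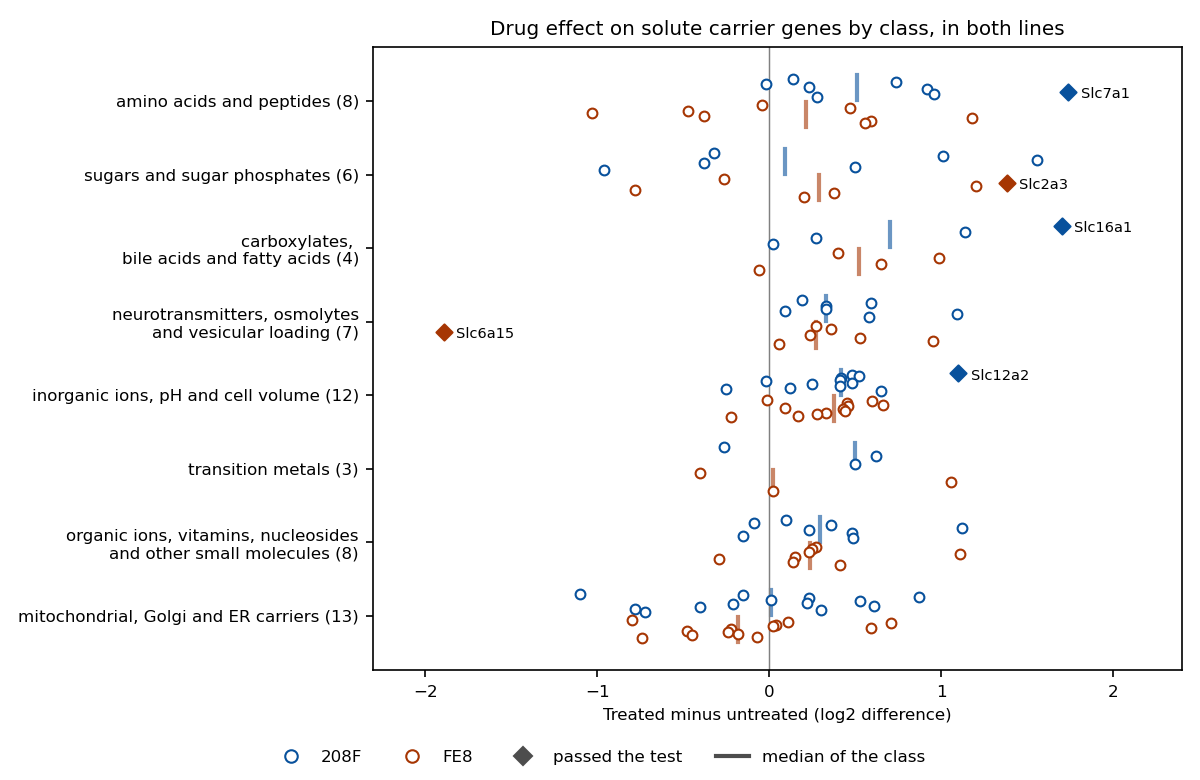
Treated minus untreated log2 difference of each member by transporter class (number of genes in brackets), in 208F (blue) and FE8 (brown), with diamonds for members that passed the test and a bar at each class median. Slc7a1, Slc16a1 and Slc12a2 passed in 208F and Slc2a3 and Slc6a15 in FE8, and the mitochondrial, Golgi and ER class has medians of 0.01 and -0.18.

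Some markers of other cell types rose with the drug. Of 3 measured epithelial markers 2 were called higher in 208F and 3 in FE8, and of 3 muscle markers 2 and 1. Over all probe sets 3.59% and 5.06% were called higher. No neuronal, liver or kidney, or endothelial marker was called for the drug in either line. Krt8 made up most of the epithelial sum, at 3250 and 2825 in treated 208F and 3838 and 4077 in treated FE8. The summed signal of 3 measured epithelial markers of 7 went from 168 to 3458 and 3039 in 208F and from 145 to 4345 and 4418 in FE8. That of 3 muscle markers of 5 went from 386 to 2047 and 2587, and from 35 to 412 and 598. The 2 neuronal markers of 6 summed to between 82 and 344, the only liver or kidney marker measured of 5, Alb, lay between 22 and 125, and the only endothelial marker of 4, Kdr, between 2 and 84. No leukocyte marker was measured, and no measured marker was at 0. The part of these genes, of the beta-actin ratio and of the lower share of weak signals in treated arrays in the transporter values was not tested.

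Whether the drug acted differently in the 2 lines was asked by the difference between the drug effects, FE8 minus 208F. None of 61 members passed in limma, where 0.0623% of all probe sets did (0.0208% higher and 0.0415% lower), and 5 members had an unadjusted p under 0.05, all lower in FE8, against 7.56% of all probe sets. They were Slc6a15 at -2.23 ± 0.58 (adjusted p = 0.19), Slc16a1 at -1.31 ± 0.41 (adjusted p = 0.31), Slc3a2 at -1.30 ± 0.46 (adjusted p = 0.42), Slc12a2 at -1.11 ± 0.40 (adjusted p = 0.44) and Slc3a1, a heavy chain of the cystine transporter, at -1.26 ± 0.57 (adjusted p = 0.65), the last named after its values were seen. The other probe sets of Slc3a2 and Slc12a2 lay closer to 0 or on the other side of it. They were at -0.16 ± 0.37 for X89225cds_s_at of Slc3a2, and at -0.40 ± 0.52 for S82233_s_at and 0.55 ± 0.53 for AF086758_g_at of Slc12a2. The other probe set of Slc16a1, D63834_at, lay below 0 too, slightly farther from it than the probe set in use, and did not pass. So calls in 1 line alone, such as that of Slc12a2, are not shown to differ between the lines. Without 208F treated replicate 1 the count was 4 (Slc16a1, Slc3a2, Slc4a7 and Slc6a15, all lower), and without replicate 2 it was 1 (Slc3a2), beside 206 and 99 calls over all probe sets, from 3.

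In a comparison that called at least 1 of a gene's probe sets, the probe sets lay over 1 apart on the log2 scale, or were called in opposite directions, for 3 members. Where no probe set was called, gaps over 1 occurred too, as for Slc25a10, whose drug effect in FE8 was 0.11 ± 0.32 by the probe set in use and -1.15 ± 0.40 by AJ223355_at (adjusted p = 0.11). For Slc1a3, X63744_at was higher in FE8 while S59158_at was at -1.69 ± 0.51 without the drug (adjusted p = 0.097) and -2.18 ± 0.36 with it (adjusted p = 0.0031), so that the treated comparison called both directions. The S59158_at signals were 232 in 208F without the drug and 298 and 400 with it, then 28 in FE8 without the drug and 56 and 4 with it. All 3 FE8 signals lay below all 3 of 208F, the reverse of X63744_at. The remaining probe sets S75687_s_at and X63744_g_at were at -0.91 ± 0.31 (adjusted p = 0.14) and -0.59 ± 0.32 (adjusted p = 0.42) under the drug, the last with signals under 64 on every array, and passed in neither comparison. By the mean of all 4 the gene was at -0.08 in the untreated and -0.53 in the treated comparison.

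Slc4a2, which exchanges chloride for bicarbonate, had 2 probe sets. The one in use, J05166_g_at, gave 356 in 208F without the drug and 372 and 417 with it, then 376 in FE8 without the drug and 475 and 469 with it. Its drug effects were 0.12 ± 0.33 in 208F and 0.28 ± 0.33 in FE8. J05166_at gave 544 in 208F without the drug and 60 and 78 with it, then 392 in FE8 without the drug and 62 and 306 with it, and was called lower in 208F at -2.20 ± 0.55 (adjusted p = 0.045). The treated FE8 duplicates of this probe set lay far apart, with 1 near the treated 208F arrays and the other near the untreated FE8 array. For Slc7a1, the probe set in use rose in 208F, while U70476_at was at 0.05 ± 0.43 and L10152_s_at at 0.34 ± 0.40.

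**Figure D4:**
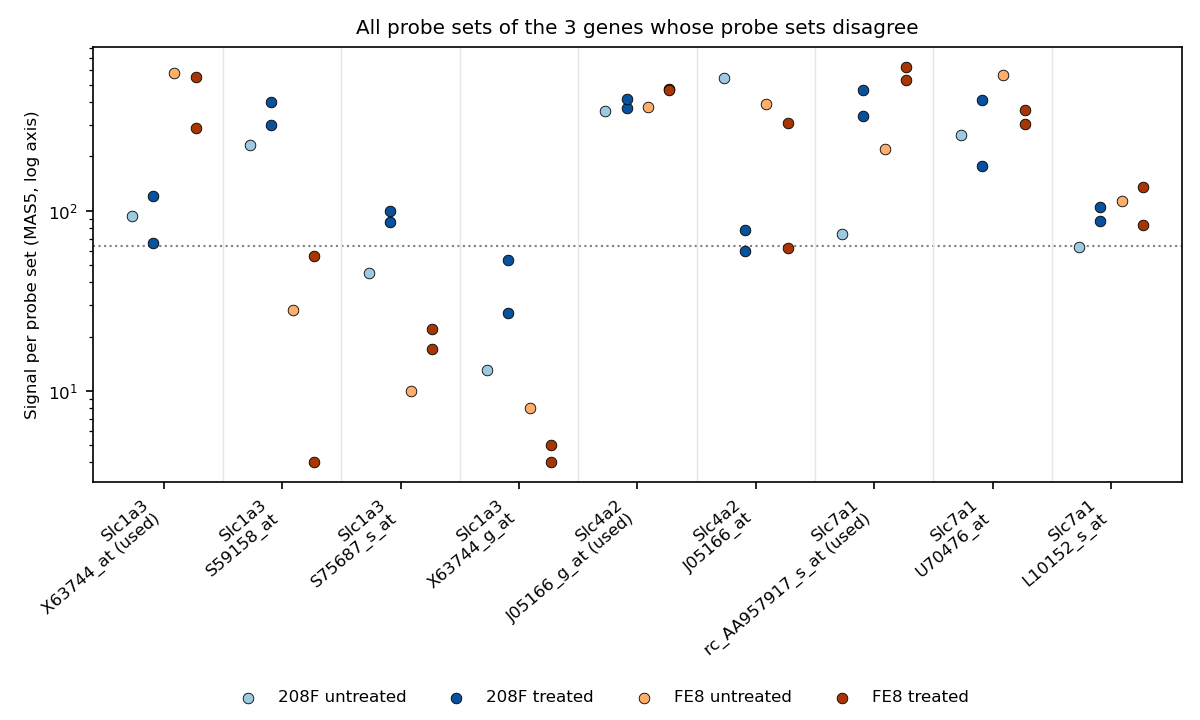
Signal of each array (log axis) for all 9 probe sets of Slc1a3, Slc4a2 and Slc7a1, with "used" on the probe set that stands for the gene and the dotted line at 64. X63744_at lies higher and S59158_at lower on every FE8 array, and J05166_at falls to 60 and 78 in treated 208F where J05166_g_at gives 372 and 417.

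Genes that work with the transporters were taken from 5 fixed lists of 53 genes, of which 17 were measured. Without the drug 3 were lower in FE8 and none higher, and with it 3 were higher and 3 lower. The drug raised 3 in 208F and 4 in FE8 and lowered none. Over all probe sets 5.92%, 7.08%, 5.19% and 8.16% were called in these comparisons. The sodium pump, which builds the gradient that sodium-coupled carriers use, was represented by its subunit Atp1b1, with signals of 4516 in 208F without the drug and 4346 and 3732 with it, then 876 in FE8 without the drug and 1170 and 1127 with it. It was lower in FE8 at -2.28 ± 0.30 (adjusted p = 0.001) and -1.75 ± 0.22 (adjusted p = 0.00039), with no overlap between the lines, while Atp1b3 was at 0.13 ± 0.31 and -0.17 ± 0.22.

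Of the helpers that carry monocarboxylate transporters to the membrane, Bsg did not pass in any comparison. Emb rose in FE8 by 1.44 ± 0.26 (adjusted p = 0.006), from 1692 to 4738 and 4660, and stood at 0.96 ± 0.26 in 208F (adjusted p = 0.06). Txnip, which promotes removal of glucose transporters from the surface, was lower in FE8 without the drug at -2.66 ± 0.33 (adjusted p = 0.00056) and with it at -0.94 ± 0.23 (adjusted p = 0.033). Its signals were 876 in 208F without the drug and 1962 and 2132 with it, then 85 in FE8 without the drug and 1096 and 977 with it. It rose with the drug by 1.17 ± 0.28 in 208F (adjusted p = 0.039) and 2.88 ± 0.28 in FE8 (adjusted p = 0.00016). Sgk1, a kinase that keeps transporters at the surface, rose in both lines, by 1.5 ± 0.32 (adjusted p = 0.02) and 1.87 ± 0.32 (adjusted p = 0.0044), and was higher in treated FE8 than in treated 208F by 1.11 ± 0.26.

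Car3, a carbonic anhydrase, was lower in FE8 at -5.13 ± 0.40 without the drug (adjusted p = 2.1e-05) and -3.86 ± 0.28 with it (adjusted p = 1e-05). Cd44, a surface glycoprotein, was higher in treated FE8 by 1.66 ± 0.24 (adjusted p = 0.0011), and stood at 1.17 ± 0.34 without the drug (adjusted p = 0.076). The ubiquitin ligase Nedd4, which marks membrane transporters for removal, rose in FE8 by 1.25 ± 0.26 (adjusted p = 0.013). In 208F it stood at 0.96 ± 0.26 (adjusted p = 0.059), from 1564 to 3129 and 3074. Slco2a1, a prostaglandin transporter of the separate Slco family, rose in 208F by 1.72 ± 0.37 (adjusted p = 0.021), from 21 to 233 and 199, and stood at 1.20 ± 0.37 in FE8 (adjusted p = 0.074).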

How the data were processed

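The deposited signal intensity per probe set is a whole number on a linear scale. Per the submitters' processing notes it was made with MAS5, with no version named. The rule that chose the probe sets in the table is not given in the sources used here. After 29 control probe sets were set aside, 4818 were tested. Genes came from the platform annotation, with symbols updated by gene identifier through RefSeq of assembly GRCr8 (3942 of 3956 probe sets with 1 gene matched; 207 listed several genes and 655 none). Chip lot and run come from the arrays' run settings, per the file headers.

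With no further normalization, log2(signal + 64) entered limma 3.58.1, run under R 4.3.3 (4 group means, eBayes with an intensity trend, 2 residual and 9.02 prior degrees of freedom). The pseudocount equals the 10th percentile of the tested signals. Tests were 2-sided over 5 comparisons, and the fit was tested on simulated data. With 6 arrays, their number limits precision.

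Named were members past the threshold in any comparison, the 3 smallest p values where a comparison called fewer than 5, the 3 members and the 2 of each class with the highest mean signal, Slc4a2, and members whose probe sets lay over 1 apart or were called in opposite directions in a comparison that called 1 of them. Other members named are ends of a range or were picked after their values were seen. Of the partner lists, measured genes past the threshold are named. Members and lists were chosen with earlier results of these data known. Alternatives varied the pseudocount, normalization, trend, filter, probe set and arrays.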

Additional observations from a re-analysis of the deposited data

How the results depend on the processing

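Of 56 counts of called members under alternative settings, 35 stayed within 1.5 times the reported count, which does not say that the members were the same. Of 243 differences of named members, 45 lost their call and 9 turned direction, and many of the others could not move because the setting leaves their arrays and scale as they were. In the 208F drug effect the count was 1 with the largest pseudocount tried and 1 under quantile normalization, against 3. In the FE8 drug effect it was 1 with a pseudocount of 16, with the largest one, under quantile normalization and without the intensity trend, and 0 without probe sets that may be shared between transcripts, which leaves out the single probe sets of both Slc6a15 and Slc2a3, against 2. With 1 treated replicate left out at a time, counts ranged from 2 to 9 and from 0 to 8 in the untreated and treated line comparisons, from 0 to 11 and from 0 to 4 in the drug effects of 208F and FE8, and from 0 to 4 in their difference. Directions turned for Slc1a3 by the mean of its probe sets (-0.08 untreated and -0.53 treated). Slc4a2 turned to -0.17, -1.04 and -0.40 by the mean of its probe sets, and to -0.42, -2.20 and -1.08 without shared probe sets, in the untreated line comparison and the drug effects of 208F and FE8, and to -0.03 in 208F under quantile normalization; elsewhere the cause was not tested. The replicate numbers were shared by the treated groups only, and the differences between duplicates correlated between lines with r = 0.319 across probe sets. With the replicate block the treated line comparison called 6 members, as without it, and the block changed no call of a named member. The replicate 1 arrays of the lines were of different chip lots and run days. The block thus does not follow the run and cannot adjust for it.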
